A study of Homo sapiens with 18 samples.

Results

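The 10 genes described here are textbook targets of the transcription factor NF-kB, most of them inflammatory signals: NFKBIA, TNFAIP3, RELB, ICAM1, the chemokines CXCL1, CXCL8, CXCL16 and CCL20, and the cytokines IL6 and LIF. They were given as a list of symbols, and each symbol matched 1 Ensembl gene, so that they make up 10 of the 58302 genes in the expression table. NF-kB is a family of dimers that wait in the cytoplasm, held by inhibitors of the IkB family until kinases mark these for destruction, or, in the non-canonical arm, until a precursor paired with RELB is processed. The freed dimers enter the nucleus, bind short kB sites and switch on adhesion molecules, chemokines and cytokines, together with the inhibitors that end the signal. In pancreatic cancer, tumor cells themselves can make these chemokines and cytokines, which draw in neutrophils and other leukocytes.

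The genes were followed in PANC-1, a line from a human pancreatic ductal carcinoma. Lentivirus carried a control shRNA vector into control cells (shCtrl) and an shRNA against NAT10 into knockdown cells (shNAT10). The labels call the control vector empty, while the oligo list of the study names a non-targeting shRNA. NAT10 is the enzyme that places N4-acetylcytidine (ac4C) on RNA. Expression was measured by RNA-seq of poly(A) RNA in 3 libraries per group, as FPKM (fragments scaled by transcript length and by the reads of the library), and ac4C by acRIP-seq, in which RNA fragments are precipitated with an antibody against ac4C (IP) and compared with the input. The labels do not say which of the NAT10 shRNAs of the study was used or whether the 3 libraries of a group came from separate cultures, so that p-values measure the spread between these libraries, which may be technical. The acRIP-seq libraries, 3 IP and 3 input per group, were deposited as 1 list of peaks per group, without replicates.

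NAT10 itself was measured at 31.6, 27.7 and 28.6 FPKM in the shCtrl libraries and at 7.92, 8.43 and 7.90 FPKM in the shNAT10 libraries (log2 fold change -1.84, SE 0.08, adjusted p = 3.85e-05 by limma). The library totals by which the FPKM were scaled, inferred from the FPKM values themselves, lay between 15831720 and 23521759 reads. All 5 epithelial markers were present, and their summed level was lower in shNAT10 cells (1491 to 1673 FPKM) than in shCtrl cells (2787 to 3749 FPKM), with EPCAM alone going the other way. Of 8 leukocyte markers only CD14 reached a mean of 1 FPKM, and the summed level of the list lay between 2.29 and 2.96 FPKM in shCtrl and between 1.41 and 1.65 FPKM in shNAT10 libraries. The 5 fibroblast markers summed to 28.7 to 34.0 FPKM in shCtrl and 17.3 to 20.8 FPKM in shNAT10 libraries, nearly all of it from COL1A1 (means of 31.1 and 19.2 FPKM). The 4 endothelial markers summed to 0.470 to 0.651 and 0.305 to 0.409 FPKM. The part of these shifts in the results below was not tested.

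The kB sites of these genes are shown first, since such sites in the promoter are how NF-kB is known to reach its targets. RefSeq promoters (GRCh38.p14, 250 bases before to 50 bases after the start) were at hand for 7 of the 10, not for RELB, CXCL16 and LIF. They were searched on both strands for the kB consensus of 10 letters and for the shorter GGANNNTCC, which overlaps it. All 7 promoters held a match to either pattern, as did 16.1% of all 27305 promoters (10.8% for the consensus, 9.29% for the shorter pattern). The stretch around the match is printed 5′ to 3′ on the strand of the gene, with the match in capitals, and only the match nearest to the start is shown.
NFKBIA, chr14:35404796-35404855, minus strand: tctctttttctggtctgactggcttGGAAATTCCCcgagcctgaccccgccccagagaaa
TNFAIP3, chr6:137867188-137867217, plus strand: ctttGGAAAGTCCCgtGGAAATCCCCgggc
ICAM1, chr19:10270924-10270952, plus strand: gctttagcttGGAAATTCCggagctgaag
CXCL1, chr4:73869289-73869349, plus strand: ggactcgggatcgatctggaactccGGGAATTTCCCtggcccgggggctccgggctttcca
CXCL8, chr4:73740468-73740496, plus strand: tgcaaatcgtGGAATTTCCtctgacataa
CCL20, chr2:227813738-227813797, plus strand: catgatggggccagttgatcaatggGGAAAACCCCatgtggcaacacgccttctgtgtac
IL6, chr7:22727117-22727146, plus strand: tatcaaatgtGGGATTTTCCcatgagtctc
TNFAIP3 held 2 matches side by side, and ICAM1 and CXCL8 matched the shorter pattern only. The printed matches began between 67 and 91 bases before the start in 6 of these genes and 186 bases before it in ICAM1. The promoter of NAT10 held a match as well, 63 bases before its start. The printed stretches of TNFAIP3, ICAM1, CCL20 and IL6 lie inside the gene bounds given for these genes below. They thus precede the RefSeq start but not every annotated one. Those of TNFAIP3 and ICAM1 also overlap an annotated GENCODE exon. A match in these windows is a match of letters, and no binding of NF-kB was measured.

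Of the 10 genes, 7 reached 1 FPKM in 3 or more libraries and were tested. Of these 7, NFKBIA, TNFAIP3, RELB, ICAM1, CXCL16 and LIF fell in shNAT10 cells, and CXCL1 did not pass the test (limma on log2 of FPKM + 0.1, adjusted p under 0.05 over 12982 genes). CXCL8, CCL20 and IL6 were at or near 0 in all 6 libraries and were not tested. Over all tested genes, 21.2% were called lower and 20.8% higher. TNFAIP3, RELB, ICAM1 and CXCL16 fell by more than 1 on the log2 scale, which 3.57% of all tested genes did (2.91% rose by more than 1). The median log2 fold change was -1.19 over the 7 genes and -0.01 over all tested genes. The genes were chosen with earlier results of these data known, so that these contrasts are no independent test of NF-kB targets. In RNA of whole cultures, fewer cells expressing a gene and less RNA per cell cannot be told apart.

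**Figure D1:**
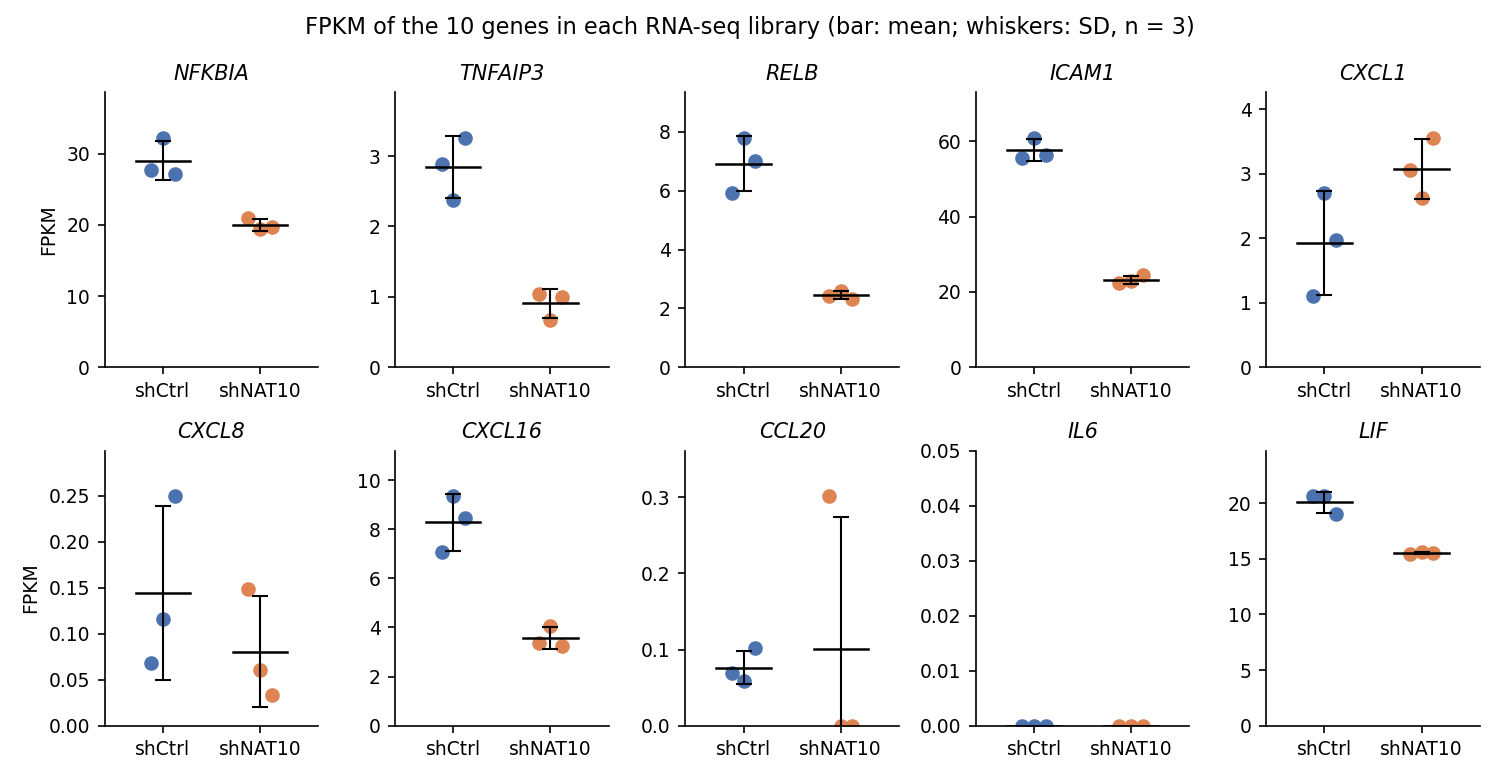
FPKM (linear axis from 0, 1 scale per panel) of the 10 genes in the 3 shCtrl libraries (blue) and the 3 shNAT10 libraries (orange), with the mean as a bar and the SD as whiskers. The groups lie apart for NFKBIA, TNFAIP3, RELB, ICAM1, CXCL16 and LIF and overlap for CXCL1, CXCL8 and CCL20, and IL6 is at 0 in each library.

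The 2 feedback inhibitors in the set both fell, TNFAIP3 by more than NFKBIA. NFKBIA (chr14:35401511-35404749, GRCh38, minus strand) encodes IkB-alpha, which binds NF-kB dimers and carries them out of the nucleus. It was measured at 27.7, 32.2 and 27.1 FPKM in shCtrl cells and at 21.0, 19.4 and 19.6 FPKM in shNAT10 cells. Each shNAT10 library lay below each shCtrl library, with the highest value in the control library of replicate 2. The mean went from 29.02 ± 2.79 to 19.98 ± 0.858 FPKM (SD, n = 3), a log2 fold change of -0.53 (SE 0.09, adjusted p = 0.00309, limma).

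TNFAIP3 (chr6:137867188-137883312, plus strand) encodes A20, an enzyme that edits ubiquitin chains and so shuts off signalling from the TNF receptor to NF-kB. Its level was far below that of NFKBIA. The shCtrl libraries gave 2.89, 2.38 and 3.26 FPKM, from 237, 228 and 363 reads, and the shNAT10 libraries 1.04, 0.674 and 1.00 FPKM, from 78, 62 and 84 reads. All values of shNAT10 cells were thus below the lowest value of shCtrl cells. The log2 fold change was -1.56 (SE 0.21, adjusted p = 0.00148, limma), with 31.9% of the control mean left. This gene is low enough for the added constant to matter. With a pseudocount of 1 its log2 fold change was -1.01, beside -1.28 for ICAM1, -1.19 for RELB and -1.02 for CXCL16.

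RELB (chr19:45001430-45038198, plus strand) is the NF-kB subunit of the non-canonical arm and is itself switched on by NF-kB. The shCtrl libraries gave 5.93, 7.80 and 7.02 FPKM and the shNAT10 libraries 2.42, 2.60 and 2.32 FPKM. The groups did not overlap, and the shNAT10 libraries lay close together. The mean fell from 6.92 ± 0.938 to 2.45 ± 0.144 FPKM (SD, n = 3), a log2 fold change of -1.45 (SE 0.12, adjusted p = 0.00024, limma).

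ICAM1 (chr19:10270835-10286615, plus strand), the adhesion receptor on which leukocytes dock with their beta2 integrins, was the most abundant of the 10 genes in both groups. It was measured at 55.6, 60.9 and 56.4 FPKM in shCtrl cells and at 22.4, 22.9 and 24.4 FPKM in shNAT10 cells. The gap between the groups was larger than the range within either. The mean fell from 57.7 ± 2.84 to 23.2 ± 1.02 FPKM (SD, n = 3), with a log2 fold change of -1.31 (SE 0.07) and the smallest adjusted p of the 7 genes (5.68e-05, limma). Of the exon bases of ICAM1, 23.6% are shared with genes on the opposite strand, and the strand setting of the counting is not given in the sources used here, so that reads over these bases cannot be assigned to ICAM1 alone.

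**Figure D2:**
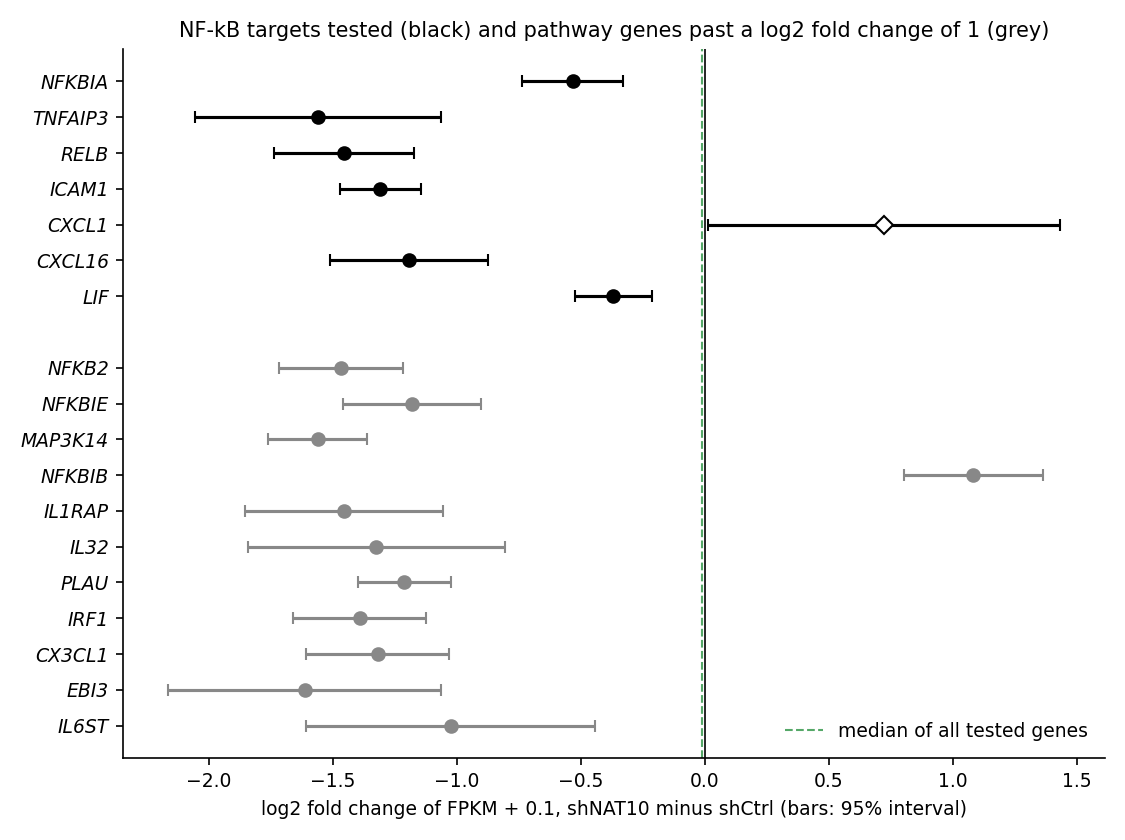
Log2 fold change of FPKM + 0.1 (x axis, shNAT10 minus shCtrl) with its 95% interval for the 7 tested genes of the set (black) and for pathway genes with an adjusted p under 0.05 and a change beyond 1 (grey). The open diamond marks CXCL1 (0.72), which did not pass the test, and NFKBIB (1.08) is the grey gene on the right. ADAM17 (-1.20) also passed these thresholds and is not drawn. The dashed line marks the median of all tested genes at -0.01.

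Of the 4 chemokines, CXCL16 fell, CXCL1 did not pass the test, and CXCL8 and CCL20 were below the filter. CXCL16 (chr17:4733526-4739922, minus strand) is made as a membrane protein whose shed part attracts T cells through CXCR6. It was measured at 7.06, 9.34 and 8.46 FPKM in shCtrl cells and at 3.38, 4.08 and 3.23 FPKM in shNAT10 cells. Here too the groups lay apart, and the mean fell from 8.28 ± 1.15 to 3.56 ± 0.449 FPKM (SD, n = 3). The log2 fold change was -1.19 (SE 0.13, adjusted p = 0.000754, limma).

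CXCL1 (chr4:73869393-73871242, plus strand), an attractant of neutrophils through CXCR2, was the 1 tested gene of the set with a higher mean in shNAT10 cells. The shCtrl libraries gave 1.10, 2.70 and 1.98 FPKM, from 21, 60 and 51 reads, and the shNAT10 libraries 3.05, 2.63 and 3.56 FPKM, from 53, 56 and 69 reads. The groups overlap, since the control library of replicate 2 lay above the lowest shNAT10 library. The log2 fold change of 0.72 (SE 0.30, 95% interval 0.01 to 1.43) had an adjusted p of 0.0934 (unadjusted p = 0.0471, limma). Without the control library of replicate 2 it was 1.00 with an adjusted p of 0.0111 (limma), so that 1 library decides this call.

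CXCL8 (chr4:73740506-73743716, plus strand) encodes interleukin-8, the main neutrophil attractant of epithelial cells. In shCtrl cells it had 2, 4 and 10 reads (0.0676, 0.116 and 0.249 FPKM) and in shNAT10 cells 4, 2 and 1 reads (0.148, 0.0603 and 0.0332 FPKM). These counts are near the limit that a count of 0 allows, which for this gene is 3 reads or 0.0748 to 0.111 FPKM in a library. The groups overlap, and an exact two-sided permutation test of the means gave p = 0.4, where 0.1 is the smallest p that 3 against 3 libraries can give.

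CCL20 (chr2:227805739-227817564, plus strand) attracts dendritic cells and Th17 cells through CCR6. Control libraries held 1, 1 and 2 of its reads (0.0687, 0.0589 and 0.101 FPKM) and knockdown libraries 4, 0 and 0 (0.301, 0 and 0 FPKM). Here a single shNAT10 library holds the highest and the others the lowest values, and no difference was detectable at this depth (exact two-sided permutation p = 1.0).

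Of the 2 cytokines, IL6 was not detected and LIF fell by less than any other called gene of the set. IL6 (chr7:22725884-22732002, plus strand) encodes the cytokine of the acute phase response and had 0 reads in all 6 libraries, which allows up to 0.0835 to 0.124 FPKM in a library. LIF (chr22:30240447-30246851, minus strand) encodes a cytokine of the same family that signals through LIFR and IL6ST. It was measured at 20.6, 20.6 and 19.0 FPKM in shCtrl cells and at 15.4, 15.6 and 15.5 FPKM in shNAT10 cells. The spread within shNAT10 cells was small (SD 0.0798 FPKM, n = 3), and the groups lay apart by more than the range of either. Its log2 fold change was -0.37 (SE 0.07, adjusted p = 0.0046, limma).

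On the FPKM scale, which is per length and allows levels of genes to be compared, the order in shCtrl cells was ICAM1, NFKBIA, LIF, CXCL16, RELB, TNFAIP3, CXCL1, CXCL8, CCL20 and IL6. The ranges of the neighbours CXCL16 and RELB, TNFAIP3 and CXCL1, and CXCL8 and CCL20 overlapped. In shNAT10 cells CXCL1 stood above RELB and TNFAIP3, with its range overlapping that of CXCL16 only. For 6 of the 10 genes all shNAT10 libraries lay below all shCtrl libraries, which held for 28.6% of all tested genes (27.9% for the opposite order), and no gene of the set lay wholly above. Each of these 6 genes had at least 1 FPKM in at least 2 libraries of either group.

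Of 28 NF-kB subunits, inhibitors and kinases, all tested, 8 were lower and 4 higher (median log2 fold change -0.12). RELB, NFKBIA and TNFAIP3 are 3 of the 8, and without them 5 of 25 were lower and 4 higher (median -0.09), beside 21.2% lower and 20.8% higher over all tested genes. MAP3K14 and NFKB2 fell beside RELB. MAP3K14, the NIK kinase that starts the non-canonical arm, fell from 13.4 to 4.49 FPKM (log2 fold change -1.56, SE 0.08, adjusted p = 5.99e-05, limma). NFKB2, the precursor that pairs with RELB, fell from 26.7 to 9.60 FPKM (-1.47, SE 0.11, adjusted p = 0.000152, limma). The fold change of RELB (-1.45) lay inside the 95% interval of MAP3K14 (-1.76 to -1.36). Other genes of the non-canonical arm, named here after their values were seen, went in both directions. BIRC3 (20.05 to 10.89 FPKM, -0.87) and BIRC2 (34.22 to 28.86 FPKM, -0.24) were called lower (adjusted p = 0.00262 and 0.0482, limma). So were the receptors TNFRSF12A (-0.75) and CD40 (-0.44; adjusted p = 0.00363 and 0.0456, limma). TRAF3, an adaptor that keeps NIK low, rose from 4.10 to 7.25 FPKM (0.81, SE 0.10, adjusted p = 0.00116, limma). CHUK, the kinase IKK-alpha, at 16.3 and 17.8 FPKM (0.14, 95% interval -0.08 to 0.36) and TRAF2, an adaptor, at 15.7 and 14.3 FPKM (-0.12, 95% interval -0.42 to 0.18) did not pass the test.

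The IkB inhibitors went in both directions. NFKBIE fell from 12.4 to 5.40 FPKM (log2 fold change -1.18, SE 0.12) and NFKBIB rose from 30.7 to 64.7 FPKM (1.08, SE 0.12), beside the smaller fall of NFKBIA. Of the subunits of the canonical arm, named here after their values were seen, RELA fell from 51.2 to 39.8 FPKM (-0.36, SE 0.09, adjusted p = 0.0145, limma), and NFKB1 at 10.01 and 9.16 FPKM did not pass the test (-0.13, 95% interval -0.34 to 0.08). REL, at 1.35 and 1.32 FPKM, did not pass it either (0.19, 95% interval -0.97 to 1.35, adjusted p = 0.78, limma).

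Upstream, 22 of 29 receptors and adaptors were tested, of which 12 were lower and 3 higher (median -0.29). Over all tested genes the shares were 21.2% lower and 20.8% higher. The lower count was 7 of 20 without the control library of replicate 3 and 7 of 22 without the shNAT10 library of replicate 3. In these 2 fits the lower count over all genes dropped as well, from 2751 to 1785 of 12688 and to 1766 of 12747. By more than 1 only IL1RAP changed, the accessory chain of the interleukin-1 receptor, from 2.49 to 0.842 FPKM (log2 fold change -1.45, SE 0.17).

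Of 39 further NF-kB target genes, 38 had a row under their symbol (SOD2 did not) and 24 were tested. Of these, 11 were lower, 2 higher and 11 did not pass the test (median -0.26). The shares of all tested genes were 21.2% lower and 20.8% higher. The list shares genes with those above and is no separate count. NFKB1, NFKB2, NFKBIE, NFKBIZ, BCL3 and TNIP1 are also among the subunits, inhibitors and kinases. BIRC3 and TRAF1 are also among the receptors and adaptors. The falls beyond 1 were those of IRF1, a transcription factor of the interferon response (5.61 to 2.07 FPKM, -1.39), IL32, a cytokine (2.39 to 0.883 FPKM, -1.32), PLAU, the urokinase (101 to 43.6 FPKM, -1.21), NFKB2 and NFKBIE.

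Of the 43 chemokine genes, 38 stayed below the filter, 22 of them at 0 in all 6 libraries. The 5 tested ones were CXCL1 and CXCL16 from above, CX3CL1, CCL2 and CCL28. CX3CL1, like CXCL16 a membrane-bound chemokine, fell from 3.24 to 1.24 FPKM (log2 fold change -1.32, SE 0.12, adjusted p = 0.000341, limma). CCL2, named like CCL28 after its values were seen, was the most abundant chemokine at 57.7 FPKM and fell to 29.7 FPKM (-0.95, SE 0.08, adjusted p = 0.000264, limma). CCL28 was at 2.42 and 2.03 FPKM and did not pass the test.

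Receptors for ICAM1 and the chemokines of the set were mostly at or near 0 in PANC-1 cells, unlike those for LIF and IL6. CXCR1 and ACKR1 were at 0, and CXCR2, CXCR6 and CCR6, receptors of the chemokines above, had means of at most 0.00751 FPKM in either group. The integrin chains that bind ICAM1 were low as well, with ITGB2 at 1.06 and 0.629, ITGAM at 0.323 and 0.0818 and ITGAL at 0.0366 and 0.0249 FPKM in shCtrl and shNAT10 cells.

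The LIF and IL6 receptor chains were expressed and changed unequally. IL6ST, the shared signalling chain gp130, had 67.5, 32.8 and 57.8 FPKM in shCtrl cells and 23.8, 23.9 and 26.5 FPKM in shNAT10 cells, and LIFR had 32.5, 15.5 and 27.3 against 11.7, 11.5 and 13.3 FPKM. In both genes the control library of replicate 2 was the lowest of its group but still above all shNAT10 libraries. Their log2 fold changes were -1.02 (SE 0.25, adjusted p = 0.0151, limma) for IL6ST and -0.97 (SE 0.25, adjusted p = 0.0202, limma) for LIFR. IL6R, the chain that binds IL6, rose from 6.20 to 9.48 FPKM (0.61, SE 0.08, adjusted p = 0.00103, limma).

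ADAM10 and ADAM17, the proteases known to shed CXCL16, CX3CL1 and IL6R from the membrane, fell from 19.1 to 11.1 FPKM and from 14.96 to 6.38 FPKM (log2 fold change -0.77 and -1.20, adjusted p = 0.0048 and 0.000955, limma). Of the 13 genes in this list of receptors and proteases, 5 were tested, 4 fell and 1 rose, beside 21.2% and 20.8% of all tested genes. The count of falls was 2 without control replicate 3, shNAT10 replicate 1 or shNAT10 replicate 2. Of 21 genes of the IL-6 family and its signalling, 15 were tested, of which 6 were lower and 3 higher (median -0.29). Without LIF, 5 of 14 were lower (median -0.23), beside the same shares of all tested genes. IL6R, IL6ST and LIFR are in both lists. EBI3, the shared chain of interleukins 27 and 35, was the fall beyond 1 besides IL6ST (2.88 to 0.866 FPKM, -1.61, SE 0.23).

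acRIP-seq was next read for the 10 genes, to see where on their RNA ac4C peaks lay in each group. Each peak carries its enrichment over the input as a fold, without replicates, so that nothing below is tested against a spread. The shCtrl list held 16 peaks on 8 of the genes and the shNAT10 list 14 peaks on 5 of them, and neither held a peak on CXCL1 or IL6. RELB, CXCL16 and LIF had peaks in the shCtrl list and none in the shNAT10 list. Among the 7 tested genes, 6 carried a shCtrl peak and 3 a shNAT10 peak, against 49.6% and 47.7% of all tested genes. Of the 16 shCtrl peaks, 6 shared at least 1 base with a shNAT10 peak on the same strand, against 25.6% of all shCtrl peaks, and 7 of the 14 shNAT10 peaks overlapped a shCtrl peak, against 27.4% of all.

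**Figure D3:**
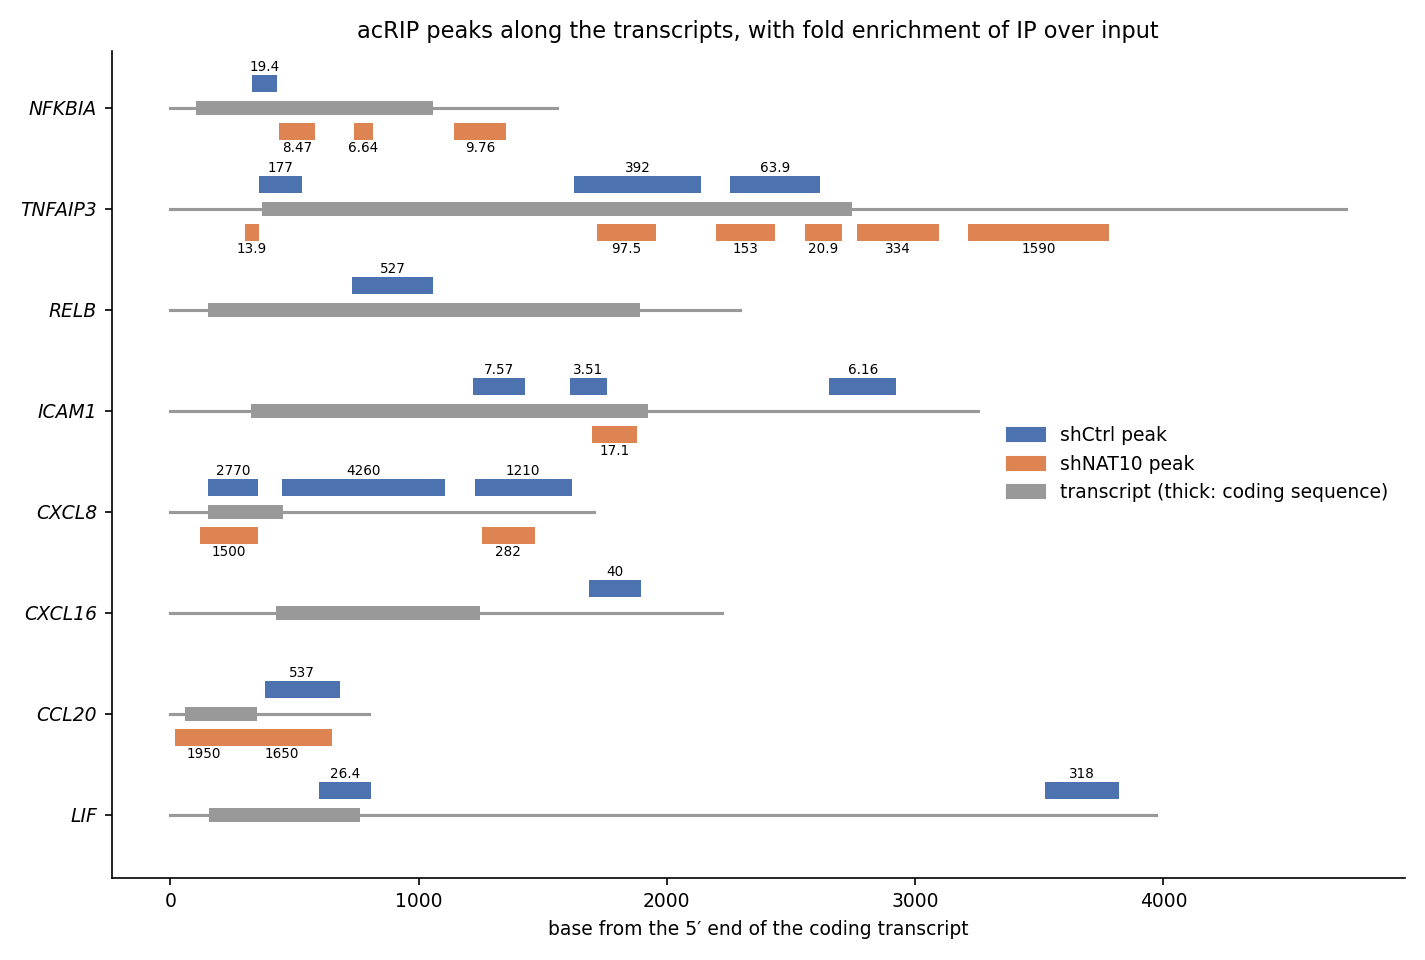
Peaks of the shCtrl list (blue, above) and the shNAT10 list (orange, below) along the coding transcript with the longest coding sequence of each gene that carried a peak (x axis, bases from its 5′ end), with the fold enrichment printed at each peak. Thick grey bars mark the coding sequence. RELB, CXCL16 and LIF carry shCtrl peaks only, and CXCL8 peaks reach 4260-fold, while 1 ICAM1 peak of 10.5-fold lies off the transcript and is not drawn.

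By role, the inhibitors had more listed peaks in shNAT10 cells, and the subunit had none there. NFKBIA had 1 shCtrl peak (19.4-fold) and 3 shNAT10 peaks (9.76-, 6.64- and 8.47-fold), and none of them overlapped. On TNFAIP3 there were 3 shCtrl peaks (177-, 392- and 63.9-fold) and 6 shNAT10 peaks, in cells where its RNA had fallen. The highest of the 6 (1590-fold, chr6:137881788-137882356) lay in the 3′ UTR, where the shCtrl list had no peak, and the lowest (13.9-fold) had a log10 p of only -2.04. On RELB the 1 shCtrl peak (527-fold, log10 p of -289) lay in the coding sequence over 4 exon blocks.

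ICAM1 carried 4 shCtrl peaks of low enrichment (10.5-, 7.57-, 3.51- and 6.16-fold) and 1 shNAT10 peak (17.1-fold), which overlapped the weakest of the 4. CXCL16 had 1 shCtrl peak in its 3′ UTR (40-fold) and LIF had 2, of 318-fold near the end of its 3′ UTR and 26.4-fold at the end of its coding sequence. All 3 genes had at least 119 reads in each RNA-seq library.

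The strongest peaks of the set lay on CXCL8 and CCL20, the chemokines with 0 to 10 reads in the RNA-seq libraries. CXCL8 had 3 shCtrl peaks (2770-, 4260- and 1210-fold), the highest at percentile 99.7 of the list, and 2 shNAT10 peaks (1500- and 282-fold). CCL20 had 1 shCtrl peak (537-fold) and 2 shNAT10 peaks (1950- and 1650-fold). The medians of the whole lists were 49.3-fold in shCtrl and 45.2-fold in shNAT10 cells. IL6, with 0 reads in all 6 libraries, carried no peak in either list.

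Fold enrichment ran against expression over all peaks. In the shCtrl list the median was 252-fold for the 498 peaks on genes with 0.1 to 0.3 FPKM, the range of CXCL8, and 11.0-fold for the 2778 peaks on genes with 30 to 100 FPKM, the range of ICAM1. All 3 CXCL8 peaks lay above the upper quartile of their class (926-fold), and all 4 ICAM1 peaks below the median of theirs. In the shNAT10 list the upper quartile of the class of CCL20 (0.1 to 0.3 FPKM) was 725-fold, below both of its peaks. In the other list of each gene the class was that under 0.1 FPKM. The shCtrl peak of CCL20 (537-fold) lay inside the quartiles of its class (63.1 to 875), and of the shNAT10 peaks of CXCL8 the 282-fold one lay inside those of its class (44.6 to 1110) and the 1500-fold one above. The reads of IP and input behind each fold enrichment are not in the lists, and the RNA-seq libraries were made from poly(A) RNA while acRIP-seq used total RNA with the ribosomal part removed. The part of the low input in these values was not tested.

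**Figure D4:**
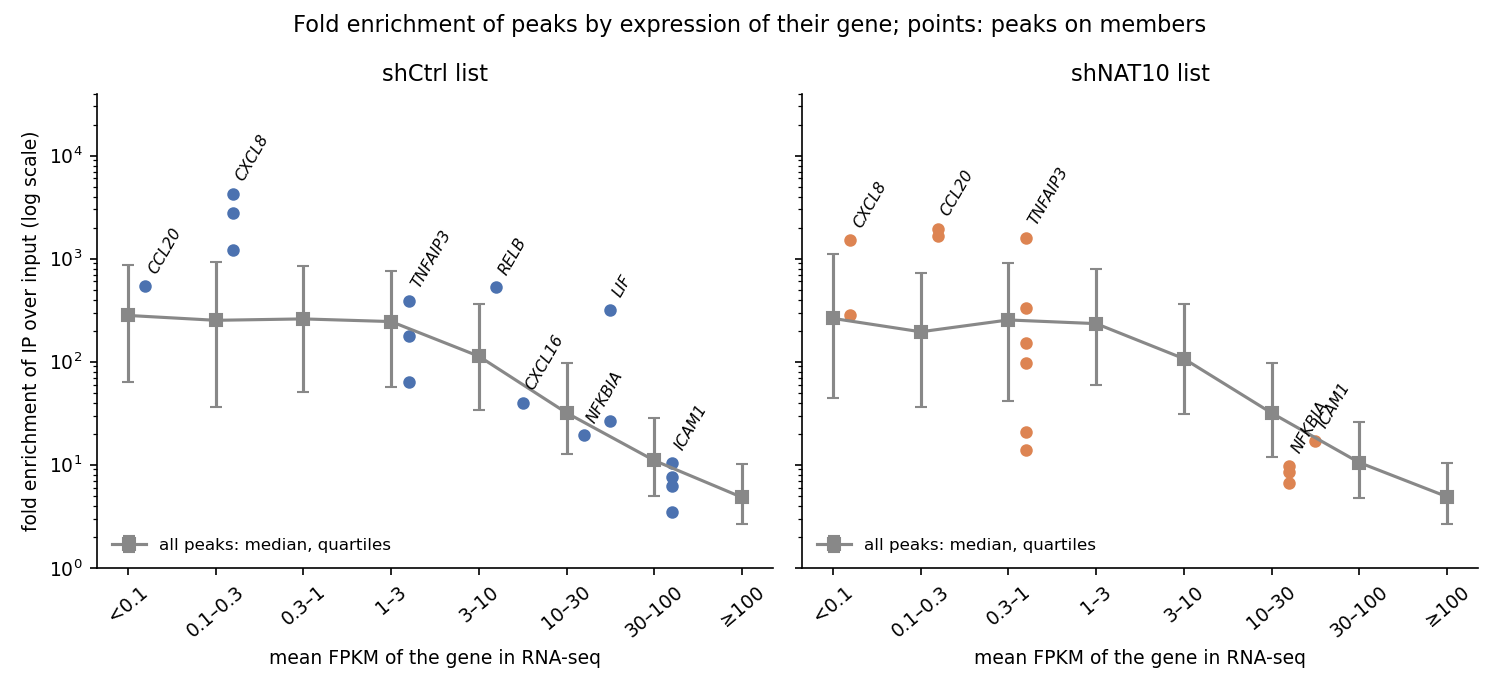
Fold enrichment of IP over input (log axis) against the mean FPKM of the gene in classes, for the shCtrl list (left) and the shNAT10 list (right). Grey squares with bars give the median and quartiles of all peaks of a class, and coloured points, set side by side within a class, are the peaks on the 10 genes. Medians fall from 281 to 4.83 in the shCtrl list, and the CXCL8 points of that list (1210 to 4260) lie above the bar of their class, while in the shNAT10 list 1 CXCL8 point (282) lies inside its bar and 1 (1500) above.

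To show the RNA under these peaks, coding stretches are printed from GENCODE v29 transcripts, with every cytidine, the base that can carry ac4C, in capitals. The CXCL8 and TNFAIP3 stretches are the middle of a coding part under peaks of both lists, the CCL20 stretch is the coding part under its 1650-fold shNAT10 peak, and the RELB stretch is the middle of its shCtrl peak.
CXCL8, coding bases 25 to 174: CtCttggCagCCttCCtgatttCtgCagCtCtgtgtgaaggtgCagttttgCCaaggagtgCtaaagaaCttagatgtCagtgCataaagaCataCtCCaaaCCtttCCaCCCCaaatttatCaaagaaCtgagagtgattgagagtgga
TNFAIP3, coding bases 1392 to 1541: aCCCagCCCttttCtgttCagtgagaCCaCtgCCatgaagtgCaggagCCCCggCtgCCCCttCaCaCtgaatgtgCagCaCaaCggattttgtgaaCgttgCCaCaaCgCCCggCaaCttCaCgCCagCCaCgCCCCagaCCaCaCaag
CCL20, coding bases 192 to 291: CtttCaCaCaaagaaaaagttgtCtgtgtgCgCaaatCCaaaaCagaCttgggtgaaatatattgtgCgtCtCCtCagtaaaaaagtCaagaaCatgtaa
RELB, coding bases 670 to 819: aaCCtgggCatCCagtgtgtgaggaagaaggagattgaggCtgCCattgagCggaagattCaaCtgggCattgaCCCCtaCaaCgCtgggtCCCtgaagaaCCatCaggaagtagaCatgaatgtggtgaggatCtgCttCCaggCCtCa
Cytidine made up 36.7% of the TNFAIP3 stretch and 27.4% of the whole TNFAIP3 coding sequence. In RELB the order was reversed, with 22% in the stretch and 33.6% in the coding sequence, and CXCL8 (21.3% and 20.3%) and CCL20 (18.0% and 22.7%) lay close. The stronger shNAT10 peak of CCL20 (1950-fold), not printed, had 25.1% C over its bases on the transcript, against 17.1% in the whole transcript. Over whole peaks, 9 of the 15 shCtrl peaks with bases on the transcript and 8 of the 14 shNAT10 peaks had a higher share of C than their transcript. By midpoint, 9 shCtrl peaks lay in the coding sequence and 6 in the 3′ UTR, and the shNAT10 peaks were split 8 and 5, with 1 in the 5′ UTR.

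The 3′ UTRs of such genes are known for AU-rich elements, through which cytokine RNAs are degraded quickly. The nonamer TTATTTATT was searched on the sense strand of the 3′ UTR, overlapping matches included, and was found in 4 of the 10 genes. CXCL1 held 3, LIF 2, and TNFAIP3 and CXCL8 held 1 each. Of 3′ UTRs of tested genes within 20% of the length, 5.15% held it at the length of CXCL1, 14.5% at that of LIF, 10.4% at that of TNFAIP3 and 7.06% at that of CXCL8. Stretches of 30 bases show the nonamers in capitals.
CXCL1, chr4:73870674-73870703, plus strand: agtcttctatTTATTTATTTATTcattagt
CXCL8, chr4:73742664-73742693, plus strand: atgtaaagtaTTATTTATTtgaatctacaa
TNFAIP3, chr6:137882298-137882327, plus strand: gtaattcactTTATTTATTttattacaaac
LIF, chr22:30240957-30240986, minus strand: ctccgggcccTTATTTATTatttaaacatt
The CXCL8 stretch lay inside the 4260-fold shCtrl peak, which has no shNAT10 counterpart, and the TNFAIP3 stretch inside the 1590-fold shNAT10 peak, which has no shCtrl counterpart. The stretches of CXCL1 and LIF lay under no peak. The core ATTTA, which the nonamer contains, occurred 6 times in the 429 bases of the IL6 3′ UTR without any nonamer, a number reached by 0.388% of 3′ UTRs of like length (median 0). CXCL8 held 9, reached by 2.4% (median 2), and RELB held 0, which is the median at its length. The counts of CXCL1, CCL20 and NFKBIA were reached by 5.15%, 8.29% and 9.34%. Those of TNFAIP3, LIF, ICAM1 and CXCL16 were reached by 43.3%, 52.0%, 62.3% and 74.0%.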

How the data were processed

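RNA-seq values were deposited by the authors as FPKM per Ensembl gene and library, counted from stranded poly(A) libraries. The submitters' processing notes name HISAT2, HTSeq 0.11.0, DESeq2 1.22.2 and hg38/GRCh38. The acRIP-seq peak lists were deposited by the authors with fold enrichment, a ratio of IP over input, and a score, log10 of the peak caller's p-value, and the libraries of a group share 1 list. The peak caller is not given in the sources used here.

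The genes and lists were chosen with earlier results of these data known. All 10 genes are described in the order of their roles, and list genes are named at an adjusted p under 0.05 and a log2 fold change beyond 1, with all receptors. log2(FPKM + 0.1) was fitted with limma 3.58.1 (R 4.3.3, mean-variance trend, Benjamini-Hochberg), for genes reaching FPKM 1 in 3 or more libraries. Fold changes on this scale understate the change of low genes. The values were whole numbers of reads (within 0.05) in 97.3% of cases above 0, taking the longest GENCODE v29 transcript as length. Steps were tested on simulated data. Peaks were placed on the transcript with the longest coding sequence and overlapped by at least 1 base. Counting limits (3 reads for a count of 0) cover counting error only. Python 3.11.15, NumPy 2.4.6, pandas 2.3.3, SciPy 1.17.1 and matplotlib 3.10.9 were used.

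Alternatives were a pseudocount of 1, TPM, quantile normalization, median centring, no filter, a filter at FPKM 5, a replicate block, no trend, voom on the recovered reads, each library left out, the 50% of peaks highest in fold enrichment or lowest in p-value, and a reciprocal overlap of 50%.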

Additional observations from a re-analysis of the deposited data

How the results depend on the processing

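The falls of NFKBIA, TNFAIP3, RELB, ICAM1, CXCL16 and LIF kept their direction and an adjusted p under 0.05 in all 89 values that the 15 alternatives gave for them (limma, adjusted p from 5.11e-06 to 0.0304). TNFAIP3 gave none at a minimum FPKM of 5, where it was not tested. The count of genes called lower was 6 with each library left out, and that of genes lower by more than 1 was 4. The count of genes called higher lay between 0 and 1 with a library left out, the 1 being CXCL1 without the control library of replicate 2. Over all genes, leaving out 1 library gave 1766 to 3182 lower and 1717 to 3311 higher, in place of 2751 and 2699. The lower count was 1785 without the control library and 1766 without the shNAT10 library of replicate 3, and the higher count was 1774, 1717 and 1736 without shNAT10 replicates 1, 2 and 3, so that the background shares rest on all 6 libraries. TPM, under which 16011 genes were tested in place of 12982, shifted the median log2 fold change of all genes by 0.10. The share of lower calls among all calls went from 50.5% to 38.9%, over this larger set of genes. ICAM1 was then at -1.20 and LIF at -0.26. The labels do not say whether the replicate numbers pair the samples. Deviations of same-numbered libraries correlated at -0.0432, 0.0643 and 0.107, and those of unlike-numbered libraries at -0.122 to 0.0632. Correlations over so few libraries cannot decide whether they were paired. With the replicate number as a block, 2603 genes were lower and 2524 higher, and 6 genes of the set were lower. Without a filter CXCL8 (-0.42, 95% interval -1.35 to 0.52) and CCL20 (-0.14, -1.49 to 1.21) did not pass. A pseudocount of 1 left 231 genes lower and 198 higher by more than 1, in place of 463 and 378, a minimum FPKM of 5 left 227 and 221, and TPM gave 702 higher.

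Of the peaks on the genes, the 50% with the highest fold enrichment left 9 of 16 in the shCtrl list and 8 of 14 in the shNAT10 list, of which 5 and 5 overlapped the other list (17.2% and 18.2% of all peaks). The 50% with the lowest p-values left 9 and 6, of which 1 and 1 overlapped in place of 6 and 7 (20.8% and 22.2% of all). With a reciprocal overlap of 50%, 4 and 4 were shared (12.7% and 13.6% of all). Fewer peaks are kept by construction. The depth limits CXCL8, CCL20 and IL6, whose reads are at or near the limit of 3, and without replicates the gain or loss of a peak cannot be told from its call.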
